A study of Mus musculus with 9 samples.

Results

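RNA-seq of 3 mouse squamous cell carcinoma (SCC) cell lines held 35 genes whose expression differed in the FAK-kd-expressing cells from both other lines while those lines lay close to each other. They were selected on their own measured values, among 19044 gene identifiers in the table of estimated counts. Each count was scaled to its library's total to give CPM (the counts a library of 1000000 would hold), and 0.1 CPM was added. A gene was kept where the largest group mean was at least 3 CPM and the FAK-kd mean was at least 2 times, or at most 0.5 times, the mean of both other lines. The ratio of FAK-WT to FAK-/- had to lie between 0.67 and 1.5, with no FAK-kd library overlapping any library of the other lines. FAK-WT replicate 1 took no part in this choice. Of the 35 genes, 21 were higher and 14 were lower in FAK-kd cells. Of the 10301 identifiers that reached 3 CPM, 46 were at least 2 times higher and 49 at least 2 times lower than in both other lines. The limits on the ratio of FAK-WT to FAK-/- left 22 and 15 of them, and the rule on overlap left 21 and 14. The same limits turned to the other lines chose 211 genes that stood apart in FAK-WT cells only and 36 in FAK-/- cells only. FAK-WT rested on replicates 2 and 3 there as well, and the other lines on 3 libraries each. These numbers of genes are therefore not strictly alike.

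The SCC cells came from K14CreER FAK flox/flox mice of the FVB strain after chemical carcinogenesis of the skin with dimethylbenz[a]anthracene and 12-O-tetradecanoylphorbol 13-acetate. FAK had been deleted in culture with 4-hydroxytamoxifen, so all 3 lines carry the deletion. The FAK-/- cells were compared with cells of a FAK-/- clone that stably express wild-type FAK (FAK-WT) or kinase-deficient FAK (FAK-kd) from a retrovirus and were selected with hygromycin, with 3 biological replicates of each line. Each FAK form is 1 cell line, so the form of FAK and any other property of its line cannot be told apart. The ages of the animals were not given in the sources used here, and nothing there says whether replicates were separate cultures. P-values for single genes therefore measure the spread between these libraries, which may be technical.

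Focal adhesion kinase (FAK), encoded by Ptk2, is a non-receptor tyrosine kinase that integrins recruit to cell-matrix adhesions. It autophosphorylates, binds Src-family kinases and relays adhesion signals to the cytoskeleton and to cell survival and growth. It also acts as a scaffold for other proteins and can enter the nucleus, so a kinase-deficient form retains domains that a cell without FAK lacks.

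Of the 9 libraries, 8 held between 25304994 and 37264636 counts, and FAK-WT replicate 1 held 779755, which is 2.31% of the median of the others. There 1 count is worth 1.28 CPM, and 3 counts, the least taken here as told from none, are 3.85 CPM. Ptk2, on chromosome 15, was at 151 to 175 CPM in FAK-kd libraries, at 19.6 to 23.5 CPM in FAK-/- libraries and at 217 to 218 CPM in FAK-WT libraries, in the order of the labels. The defining markers of keratinocytes were near 0 in all lines. Krt5, Krt14, Krt18 and Cdh1 were at or under 1 CPM in every library, and the 5 keratinocyte markers of 7 that were analysed summed to between 0.198 and 1.70 CPM in any library. The fibroblast markers (5 of 6 analysed) summed to between 48.9 and 74.4 CPM in FAK-kd, 57.8 and 62.4 CPM in FAK-/- and 20.5 and 24.6 CPM in FAK-WT libraries, with Dcn at or under 1 CPM throughout. Leukocyte and endothelial markers summed to at most 3.36 and 2.07 CPM. The fibroblast sums were lower in FAK-WT libraries and overlapped between FAK-kd and FAK-/- libraries, and their part in the values below was not tested.

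All 35 genes are described below, most of them by what their products do. Ratios are of group means on the CPM + 0.1 scale, with FAK-WT represented by replicates 2 and 3. The ratios and the lack of overlap between FAK-kd and the other libraries used are a description, since they chose the genes. In edgeR's quasi-likelihood test over all 19044 identifiers, calls were made at an adjusted p no higher than 0.05 with a fold change no smaller than 1 on the log2 scale, in either direction. That test called 19 of the 21 genes higher than in FAK-WT cells, where it called 2.89% of all identifiers, and 19 of 21 higher than in FAK-/- cells, where it called 0.914%. It called 14 of the 14 other genes lower than in FAK-WT cells (2.37% of all identifiers) and 14 of 14 lower than in FAK-/- cells (1.09%). Nothing is read from these counts, since the same contrasts chose the genes. The uncalled genes were Ankrd29 and Gm7332 in both comparisons.

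**Figure D1:**
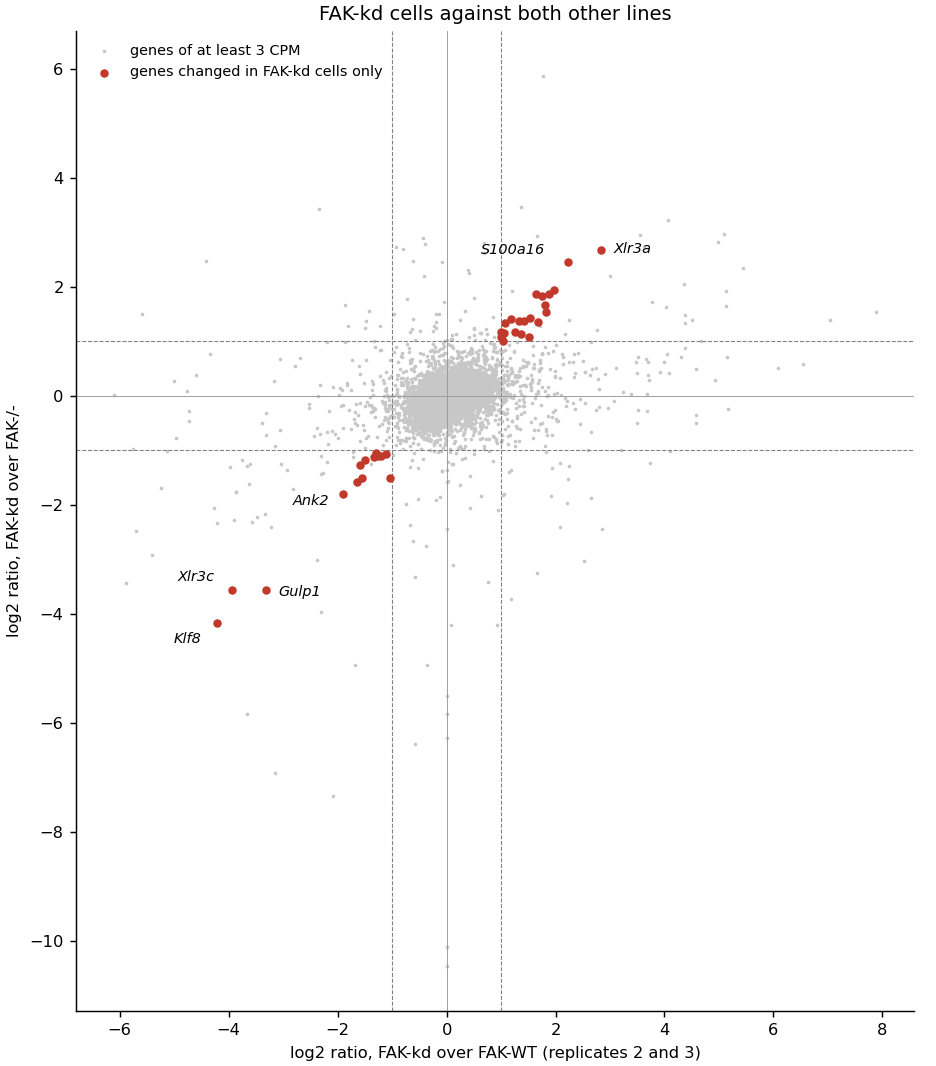
Log2 ratio of FAK-kd over FAK-WT (horizontal axis, replicates 2 and 3) against log2 ratio of FAK-kd over FAK-/- (vertical axis), both from group means of CPM + 0.1, for the 10301 identifiers that reached 3 CPM (grey) and the 35 chosen genes (red). Dashed lines mark log2 ratios of 1 and -1. The 21 higher genes lie along the diagonal up to Xlr3a (2.83 and 2.68), and the 14 lower genes reach down to Klf8 (-4.21 and -4.18).

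The highest ratios of the list were those of Xlr3a, and a related X-linked gene, Xlr3c, was among the lower genes. Xlr3a and Xlr3c belong to the X-linked lymphocyte-regulated 3 family, whose proteins are nuclear and resemble a component of the meiotic synaptonemal complex. In the mm10 assembly Xlr3a (ENSMUSG00000057836) lies at chrX:73086293-73097095 and Xlr3c (ENSMUSG00000058147) at chrX:73254540-73265390, both on the minus strand and 157 kb apart. The bases just before the start of both genes are shown. The estimated counts of the pair differed in opposite directions, while these sequences align over much of their length. They are from RefSeq (GRCm38.p6), at chrX:73097096-73097345 and chrX:73265391-73265640, read on the gene's strand, with CCAAT boxes in capitals.
Xlr3a: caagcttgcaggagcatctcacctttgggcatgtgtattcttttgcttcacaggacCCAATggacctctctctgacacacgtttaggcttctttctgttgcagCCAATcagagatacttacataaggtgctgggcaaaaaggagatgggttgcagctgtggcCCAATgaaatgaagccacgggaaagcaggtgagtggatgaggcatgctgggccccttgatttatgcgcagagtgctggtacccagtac
Xlr3c: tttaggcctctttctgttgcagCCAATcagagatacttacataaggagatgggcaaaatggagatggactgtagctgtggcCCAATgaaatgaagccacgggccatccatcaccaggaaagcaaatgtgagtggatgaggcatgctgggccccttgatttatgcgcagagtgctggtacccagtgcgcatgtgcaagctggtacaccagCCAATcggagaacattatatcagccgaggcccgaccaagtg

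Over the 300-base RefSeq windows of Xlr3a and Xlr3c, 219 bases could be aligned, and 209 of them (95.4%) were identical. Xlr3a was at 16.3, 19.9 and 17.4 CPM in the FAK-kd libraries. It was at 2.73, 2.49 and 2.91 CPM in FAK-/- and at 2.52 and 2.34 CPM in FAK-WT replicates 2 and 3. All FAK-kd libraries thus lay far above the others, which nearly coincided, and the means differed 7.10-fold from FAK-WT and 6.40-fold from FAK-/-. Xlr3c was at 0.0586, 0.0597 and 0.174 CPM in FAK-kd, at 2.31, 2.29 and 2.08 CPM in FAK-/- and at 2.93 and 2.92 CPM in FAK-WT replicates 2 and 3. Only 2, 2 and 6 counts of Xlr3c were left in the FAK-kd libraries, so its ratios of 15.3 (FAK-WT over FAK-kd) and 11.8 (FAK-/- over FAK-kd) depend on the 0.1 CPM added. Of the 31-base words in Xlr3a transcripts, 23.1% also occur in Xlr3c, and 62.2% of the words of Xlr3c occur in Xlr3a, so the estimated counts of these genes are uncertain as separate values. With the counts of both summed, FAK-kd cells held 18.0 ± 1.79 CPM (mean ± SD, n = 3), FAK-/- cells 4.94 ± 0.135 CPM (n = 3) and FAK-WT cells 5.36 ± 0.126 CPM (n = 2). The sum was 3.31-fold higher in FAK-kd than in FAK-WT cells and 3.59-fold higher than in FAK-/- cells. The sum therefore met every limit as a higher gene, while the fall of Xlr3c cannot be given apart from the division of shared reads. Xlr3b, which shares 53.7% of the words of Xlr3a and 76.4% of those of Xlr3c, was at or under 0.295 CPM in every library. The related gene Xlr had log2 ratios of 0.01 over FAK-WT and 0.41 over FAK-/-.

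Genes of the extracellular matrix and of sugar chains made up part of the higher group. Has1 (ENSMUSG00000003665, chr17:17843323-17855205), which makes the matrix polysaccharide hyaluronan, was at 15.7, 20.5 and 19.7 CPM in FAK-kd libraries. It was at 5.04, 3.91 and 6.14 CPM in FAK-/- and at 5.29 and 4.69 CPM in FAK-WT replicates 2 and 3. Every FAK-kd library was above 15 CPM and every other library below 7 CPM, a ratio of 3.68 to FAK-WT and 3.65 to FAK-/-. Tgm2 (ENSMUSG00000037820, chr2:158116402-158146436), a transglutaminase that cross-links matrix proteins and also binds GTP, was at 58.4, 67.0 and 67.1 CPM in FAK-kd. Its levels were 24.9, 26.2 and 23.9 CPM in FAK-/- and 19.1 and 20.8 CPM in FAK-WT replicates 2 and 3, and the FAK-WT libraries were the lowest. Its ratios were 3.20 to FAK-WT and 2.56 to FAK-/-. Of the 31-base words of Tgm2, 19.95% occur in other genes' transcripts, most of them in the processed transcript Gm20412, which was not analysed here. Pxylp1, a phosphatase that acts on the xylose linking proteoglycan chains to their core protein, was at 6.04 to 6.12 CPM in FAK-kd and at 1.80 to 3.16 CPM in the 5 other libraries used. B3gnt3, a glycosyltransferase that extends O-linked sugar chains, was at 6.22 to 8.30 CPM against 3.03 to 3.40 CPM.

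The motif search looked for TGANTCA (AP-1), TGACGTCA (the cAMP response element, CRE), CCGGAAG (ETS), GGGCGG (GC box), CCAAT and TATAAA on both strands of the RefSeq windows from 250 bases before to 50 after each start. No motif of this set contains another. Windows were found for 24 of the 35 genes, 32 windows in all, beside 32851 windows in the whole table. The windows shown next are those of the higher group that held a CRE or an AP-1 motif, the site of c-Jun and its partners and a question of the study. They lie at chr17:17855189-17855438 (Has1, minus strand), chr3:55461478-55461727 (Dclk1, plus strand) and chr3:90540896-90541145 (S100a16, plus strand). The starts shown for Dclk1 and S100a16 lie inside these genes. The windows at the outer starts of Dclk1 and S100a16 held no AP-1 motif. Capitals mark the motifs of the set.
Has1: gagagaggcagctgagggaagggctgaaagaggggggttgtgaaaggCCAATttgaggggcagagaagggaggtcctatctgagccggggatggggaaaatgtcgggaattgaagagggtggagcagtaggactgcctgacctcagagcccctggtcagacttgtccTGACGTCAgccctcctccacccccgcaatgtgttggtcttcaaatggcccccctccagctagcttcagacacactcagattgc
Dclk1: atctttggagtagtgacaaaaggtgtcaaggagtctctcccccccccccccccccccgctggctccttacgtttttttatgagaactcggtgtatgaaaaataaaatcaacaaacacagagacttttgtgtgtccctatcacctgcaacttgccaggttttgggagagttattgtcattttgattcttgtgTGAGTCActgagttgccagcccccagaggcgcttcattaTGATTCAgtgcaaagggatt
S100a16: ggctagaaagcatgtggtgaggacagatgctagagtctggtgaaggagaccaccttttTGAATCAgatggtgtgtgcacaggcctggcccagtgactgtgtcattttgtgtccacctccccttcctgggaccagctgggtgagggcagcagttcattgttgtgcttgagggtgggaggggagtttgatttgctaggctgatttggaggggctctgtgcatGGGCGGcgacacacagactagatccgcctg

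The AP-1 motif was found in 2 of the 16 windows of the higher genes (12.5%), those of Dclk1 and S100a16, in 0 of the 16 windows of the lower genes and in 7.81% of all windows. The CRE was found in 1 window of the higher genes, that of Has1, in none of the lower genes and in 1.79% of all windows. The ETS motif was found in 1 window of each group, for Dclk1 and Man2b2, and in 8.86% of all windows. The GC box was in 43.8% of the windows of higher genes and 37.5% of those of lower genes, beside 35.7% of all windows, and the CCAAT box in 37.5% and 43.8% beside 37.4%. TATAAA was in 6.25% and 12.5% beside 13.6%. The shares of AP-1, CRE, ETS and TATAAA each rest on 0 to 2 windows, and no order is read from them. A match of letters does not show binding.

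Kinases, lipid signalling proteins, a calcium-binding protein and others made up another set of higher genes. S100a16 (ENSMUSG00000074457, chr3:90537254-90543151), a small calcium-binding protein of the EF-hand type, was at 4.52, 3.85 and 4.62 CPM in FAK-kd libraries. It was at 0.569, 1.07 and 0.480 CPM in FAK-/- and at 0.859 and 0.840 CPM in FAK-WT replicates 2 and 3, so the FAK-kd libraries lay clearly above and the ratios were 4.67 and 5.50. Of its relatives that reached 3 CPM (S100a1, S100a3, S100a4, S100a6, S100a10, S100a11 and S100a13), log2 ratios lay between -0.38 and 0.13 over FAK-WT and between -0.57 (S100a3) and 0.58 (S100a1) over FAK-/-. Dclk1 (ENSMUSG00000027797, chr3:55242364-55539068), a kinase that binds microtubules, was at 5.95, 7.88 and 7.74 CPM in FAK-kd, at 2.01, 1.94 and 1.92 CPM in FAK-/- and at 2.20 and 1.94 CPM in FAK-WT replicates 2 and 3. The other lines were nearly equal, and the ratios were 3.36 to FAK-WT and 3.55 to FAK-/-. Its paralogue Dclk2 had log2 ratios of -0.10 and -0.12.

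Pik3c2b, a class II phosphoinositide 3-kinase, was at 2.96, 3.73 and 3.43 CPM in FAK-kd libraries and at 0.778 to 1.01 CPM in the 5 others used, a ratio of 3.49 to FAK-WT and 3.19 to FAK-/-. Its paralogue Pik3c2a had log2 ratios of -0.55 and -0.04. Pitpnc1, a phosphatidylinositol transfer protein, was at 6.40 to 7.57 CPM in FAK-kd against 2.73 to 3.58 CPM. Frmd6 (ENSMUSG00000048285, chr12:70825514-70902234), a FERM-domain protein linked to the Hippo pathway, was at 150, 166 and 163 CPM in FAK-kd, at 69.8, 70.8 and 72.7 CPM in FAK-/- and at 80.9 and 78.3 CPM in FAK-WT replicates 2 and 3. The FAK-kd libraries lay well apart, with ratios of 2.01 and 2.25. Of the words of Frmd6, 17.2% occur in the processed pseudogene Gm5780, which was not analysed here. Arhgap28 (ENSMUSG00000024043, chr17:67842713-68004120) was at 23.3, 30.2 and 31.1 CPM in FAK-kd, at 12.2, 11.5 and 9.63 CPM in FAK-/- and at 13.6 and 13.2 CPM in FAK-WT replicates 2 and 3. FAK-kd replicate 1 was the lowest of its group and still above every other library, and the ratios were 2.10 and 2.52. Ankrd44, a regulatory ankyrin-repeat subunit of protein phosphatase 6, was at 5.37 to 6.43 CPM against 2.15 to 2.94 CPM, and Unc13d, which primes granules for exocytosis, was at 4.12 to 4.39 CPM against 1.88 to 2.30 CPM.

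Decr1, Cbr2 and Acsbg1, among the higher genes, encode enzymes of lipid and carbonyl metabolism and were grouped after they were chosen. Decr1 (ENSMUSG00000028223, chr4:15917240-15945507), a mitochondrial reductase needed to oxidise unsaturated fatty acids, was at 28.9, 25.6 and 25.7 CPM in FAK-kd. It was at 9.77, 9.92 and 7.93 CPM in FAK-/- and at 6.87 and 8.08 CPM in FAK-WT replicates 2 and 3. Every FAK-kd library was above 25 CPM and every other under 10 CPM, a ratio of 3.55 to FAK-WT and 2.89 to FAK-/-, while Decr2, its peroxisomal counterpart, had log2 ratios of -0.14 and -0.15. Cbr2 (ENSMUSG00000025150, chr11:120729489-120732114), a carbonyl reductase, was at 18.5, 23.2 and 23.3 CPM in FAK-kd, at 5.90, 6.48 and 5.25 CPM in FAK-/- and at 6.82 and 7.01 CPM in FAK-WT replicates 2 and 3, with ratios of 3.11 and 3.64. Cbr3, of the same enzyme class, missed the minimum level at 2.77 CPM and had log2 ratios of 1.61 and 1.33. Its relatives Cbr1 and Cbr4 reached the minimum level, at 8.25 and 6.03 CPM in FAK-kd. The log2 ratios were 0.27 and 0.65 for Cbr1 and 0.41 and 0.39 for Cbr4. Acsbg1, which activates long-chain fatty acids with coenzyme A, was at 12.5, 8.21 and 9.22 CPM in FAK-kd and at 2.73 to 5.21 CPM in the other libraries used, the widest relative spread between FAK-kd libraries in the higher group.

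Psca and Ly6e are GPI-anchored surface proteins of the Ly6 family, and they are neighbours on chromosome 15. Psca (ENSMUSG00000022598, chr15:74714839-74717069), prostate stem cell antigen, was at 9.33, 8.84 and 9.28 CPM in FAK-kd, at 2.91, 3.44 and 3.68 CPM in FAK-/- and at 3.03 and 3.16 CPM in FAK-WT replicates 2 and 3. Ly6e (ENSMUSG00000022587, chr15:74955051-74959905) was at 164, 173 and 173 CPM in FAK-kd, at 79.0, 74.3 and 77.7 CPM in FAK-/- and at 80.6 and 83.1 CPM in FAK-WT replicates 2 and 3. Both genes thus had tight groups, with ratios of 2.89 and 2.69 for Psca and of 2.08 and 2.21 for Ly6e. They lie 238 kb apart, with Them6 and Lynx1 as the only genes of at least 3 CPM between them. Their starts are 1292 and 1532 kb from the start of Ptk2, the gene that was deleted in these cells.

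The neighbourhood of Psca and Ly6e was looked at after these values were seen, and no test was made. From 1 Mb beyond Ptk2 to 1 Mb beyond Ly6e, 24 genes reached 3 CPM, and 19 of them had both log2 ratios above 0 and 2 had both below 0. Without Ptk2, Psca and Ly6e, both ratios were above 0 for 17 of 21 genes, with medians of 0.39 over FAK-WT and 0.21 over FAK-/-. Over all 10301 genes, 3053 had both ratios above 0, and the medians were -0.0048 and -0.0070. Arc, a neuronal cytoskeletal protein gene, had log2 ratios of 0.79 and 0.97, Gsdmd, which forms pores in pyroptosis, had 0.69 and 0.82, and the phosphatase gene Ptp4a3 had 1.03 and 0.82. Ly6a, next to Ly6e, had 0.68 over FAK-WT and 2.80 over FAK-/-, since it also differed between those lines. Genes of 1 stretch share their surroundings and are not independent of each other.

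**Figure D2:**
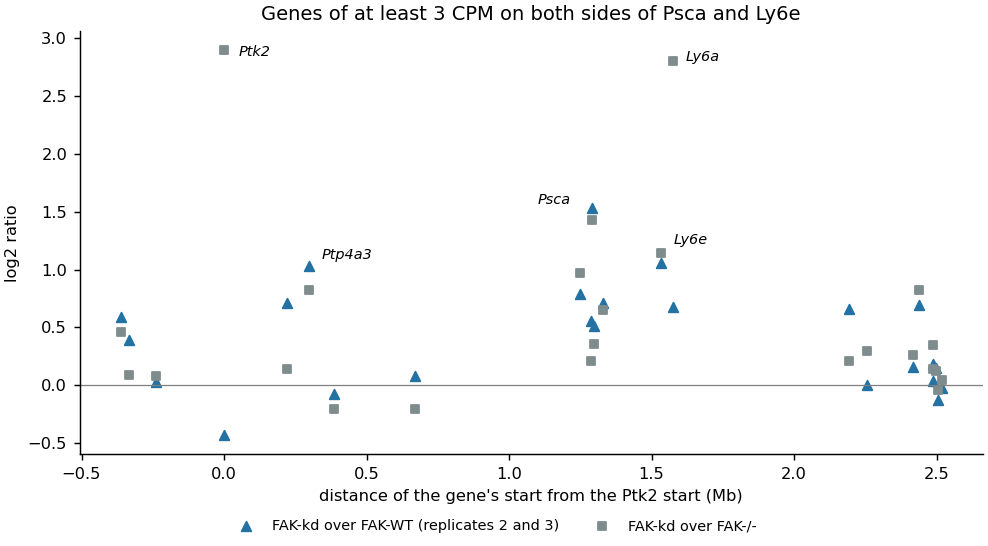
Log2 ratios of FAK-kd over FAK-WT (triangles, replicates 2 and 3) and over FAK-/- (squares) for the 24 genes of at least 3 CPM around Psca and Ly6e, against the distance of each gene's start from the start of Ptk2 in Mb. Psca and Ly6e have both ratios above 1, and 19 of the 24 genes have both ratios above 0.

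The functions of 3 higher genes are less well described. Ankrd29, an ankyrin-repeat protein, was at 2.90 to 3.34 CPM in FAK-kd and at 0.768 to 1.38 CPM in the other libraries used. The uncharacterised gene 2210408I21Rik was at 5.78 to 6.72 CPM against 2.11 to 3.01 CPM. Gm7332, a processed pseudogene, was at 3.08 to 4.07 CPM against 0 to 1.61 CPM, and FAK-WT replicate 3 held 0. Of the words of Gm7332, 89.4% occur in its likely parent Ppp1r14b, an inhibitor of protein phosphatase 1, which was at 287 to 306 CPM in FAK-kd and at 317 to 593 CPM in the other libraries. The level of Gm7332 is therefore uncertain, being a small part of reads that mostly fit both genes.

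**Figure D3:**
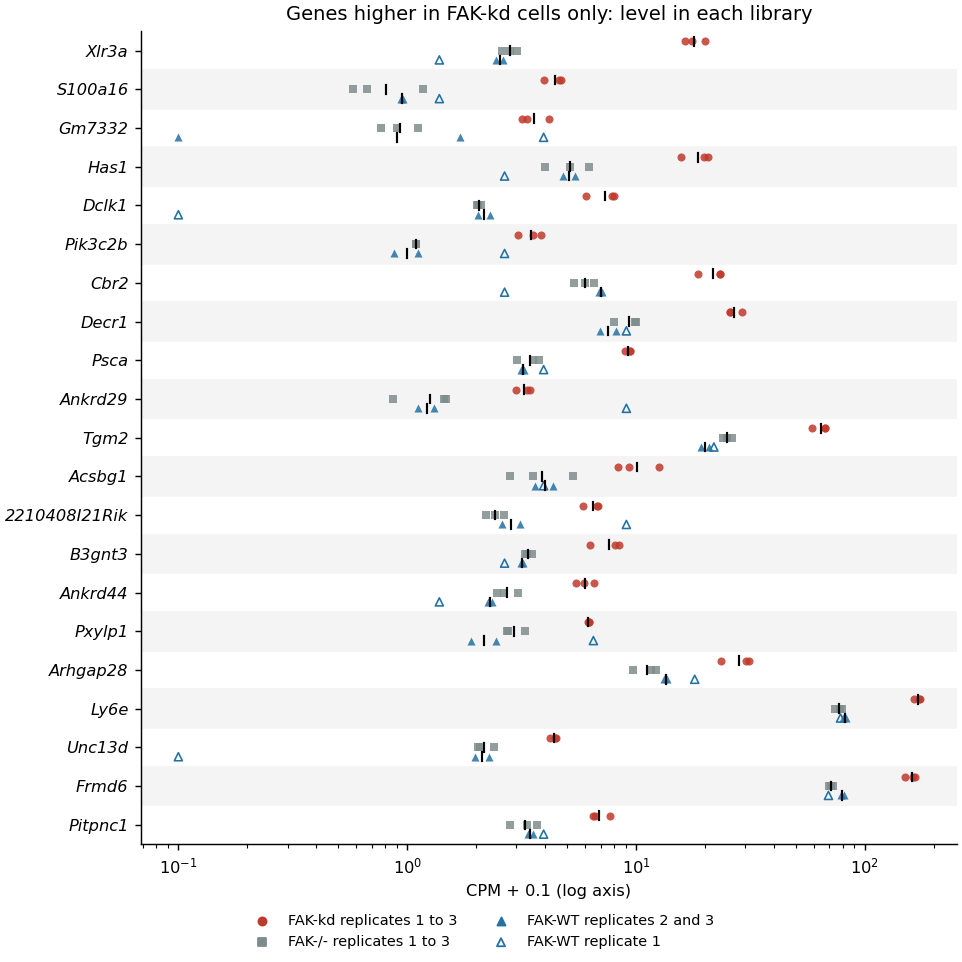
CPM + 0.1 on a log axis for the 21 genes higher in FAK-kd cells, with 1 symbol per library: FAK-kd (red circles), FAK-/- (grey squares) and FAK-WT (blue triangles, open for replicate 1), and a black bar at each group mean, which leaves out FAK-WT replicate 1. The FAK-kd libraries lie right of all filled symbols of the other lines, and the open triangle joins or passes the FAK-kd libraries for Gm7332, Ankrd29, 2210408I21Rik and Pxylp1.

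Among the 14 lower genes, Klf8 and Gulp1 were nearly absent from FAK-kd cells. Klf8 (ENSMUSG00000041649, chrX:153237466-153396132), a Krüppel-like transcription factor, was at 0.323, 0.179 and 0.116 CPM in FAK-kd. It was at 5.81, 5.81 and 4.70 CPM in FAK-/- and at 5.45 and 5.70 CPM in FAK-WT replicates 2 and 3. The FAK-kd libraries held 11, 6 and 4 counts, and the other lines were alike, at 18.5 times (FAK-WT) and 18.1 times (FAK-/-) the FAK-kd level. Its relative Klf3 had log2 ratios of 0.26 and 0.22. Gulp1 (ENSMUSG00000056870, chr1:44551511-44796838), an adaptor protein in the engulfment of dying cells, was at 0.235, 0.149 and 0.233 CPM in FAK-kd, at 3.69, 3.71 and 3.20 CPM in FAK-/- and at 3.14 and 2.75 CPM in FAK-WT replicates 2 and 3. It stood 9.97 and 11.9 times higher in FAK-WT and FAK-/- cells, from 8, 5 and 8 counts in the FAK-kd libraries. At so few counts the ratios of Klf8 and Gulp1 depend on the 0.1 CPM added, which makes them smaller. In these bulk libraries fewer cells that express a gene and less RNA of it per cell cannot be told apart.

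The next 4 lower genes encode an adaptor, a scaffold, an exchange factor and an adhesion molecule. Ank2, which encodes ankyrin-B and ties membrane proteins to the spectrin cytoskeleton, was at 0.880, 0.687 and 0.814 CPM in FAK-kd and at 2.49 to 3.68 CPM in the other libraries used, with log2 ratios of -1.89 and -1.81. Its paralogue Ank3 had log2 ratios of 0.22 and -0.10. Mapk8ip1 (ENSMUSG00000027223, chr2:92383676-92401263), a scaffold of the JNK pathway also known as JIP1, was at 3.87, 4.42 and 5.29 CPM in FAK-kd, at 9.77, 9.48 and 11.8 CPM in FAK-/- and at 13.4 and 12.6 CPM in FAK-WT replicates 2 and 3. The FAK-kd libraries were lowest and the FAK-WT libraries highest, and the log2 ratios were -1.50 and -1.17, while Mapk8ip3 had -0.35 and -0.34. Rapgef3 (Epac1), a cAMP-activated exchange factor for Rap GTPases, was at 2.49 to 3.75 CPM against 6.56 to 7.80 CPM. Cadm4, an immunoglobulin-type cell adhesion molecule, was at 2.12 to 3.11 CPM against 5.26 to 6.66 CPM, and its relative Cadm1 had log2 ratios of 0.10 over FAK-WT and 1.04 over FAK-/-.

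Secreted proteins among the lower genes were Stc2, Dmp1 and Nrg2. Stc2 (ENSMUSG00000020303, chr11:31357307-31370074), a stanniocalcin that is a target of the ATF4 stress response, was at 6.42, 7.49 and 8.35 CPM in FAK-kd, at 14.7, 16.9 and 16.5 CPM in FAK-/- and at 16.5 and 17.7 CPM in FAK-WT replicates 2 and 3. All FAK-kd libraries were under 9 CPM and all 5 others used over 14 CPM. The paralogue Stc1 missed the minimum level, with a largest group mean of 0.721 CPM, and had log2 ratios of -2.56 and -1.27. Dmp1 (ENSMUSG00000029307, chr5:104202613-104214102), a phosphoprotein of bone and dentin matrix, was at 5.92, 5.70 and 6.22 CPM in FAK-kd, at 13.4, 14.2 and 11.1 CPM in FAK-/- and at 14.5 and 14.3 CPM in FAK-WT replicates 2 and 3. Their log2 ratios were -1.20 and -1.10 for Stc2 and -1.26 and -1.10 for Dmp1. Nrg2, a neuregulin that binds ErbB receptors, was at 0.985 to 1.52 CPM against 2.53 to 3.62 CPM.

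Transporters, a lysosomal enzyme and a zinc finger gene completed the lower group. Slc1a3 (ENSMUSG00000005360, chr15:8634124-8710764), a glutamate and aspartate transporter, was at 4.34, 2.51 and 2.59 CPM in FAK-kd, at 10.2, 8.97 and 9.60 CPM in FAK-/- and at 10.1 and 10.0 CPM in FAK-WT replicates 2 and 3. FAK-kd replicate 1 was the highest of its group and still under all others, with log2 ratios of -1.65 and -1.58. The neutral amino acid transporter Slc1a5 had -0.74 and -0.31, and Slc1a4 of the same family had 0.29 and -0.21. Slco5a1, of the organic anion transporter family, was at 2.05 to 2.41 CPM against 4.55 to 6.99 CPM. Man2b2 (ENSMUSG00000029119, chr5:36806921-36830653), a lysosomal mannosidase, was at 4.16, 4.21 and 4.80 CPM in FAK-kd, at 10.3, 8.89 and 13.02 CPM in FAK-/- and at 14.2 and 12.6 CPM in FAK-WT replicates 2 and 3. Zfp850 (ENSMUSG00000096916, chr7:27984854-28014115), a zinc finger protein, was at 2.93, 3.94 and 3.66 CPM in FAK-kd, at 11.1, 12.3 and 7.42 CPM in FAK-/- and at 10.4 and 10.7 CPM in FAK-WT replicates 2 and 3. FAK-/- was the most spread group for both genes, with log2 ratios of -1.59 and -1.27 for Man2b2 and of -1.56 and -1.52 for Zfp850. The paralogue Man2b1 had 0.27 and -0.19.

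**Figure D4:**
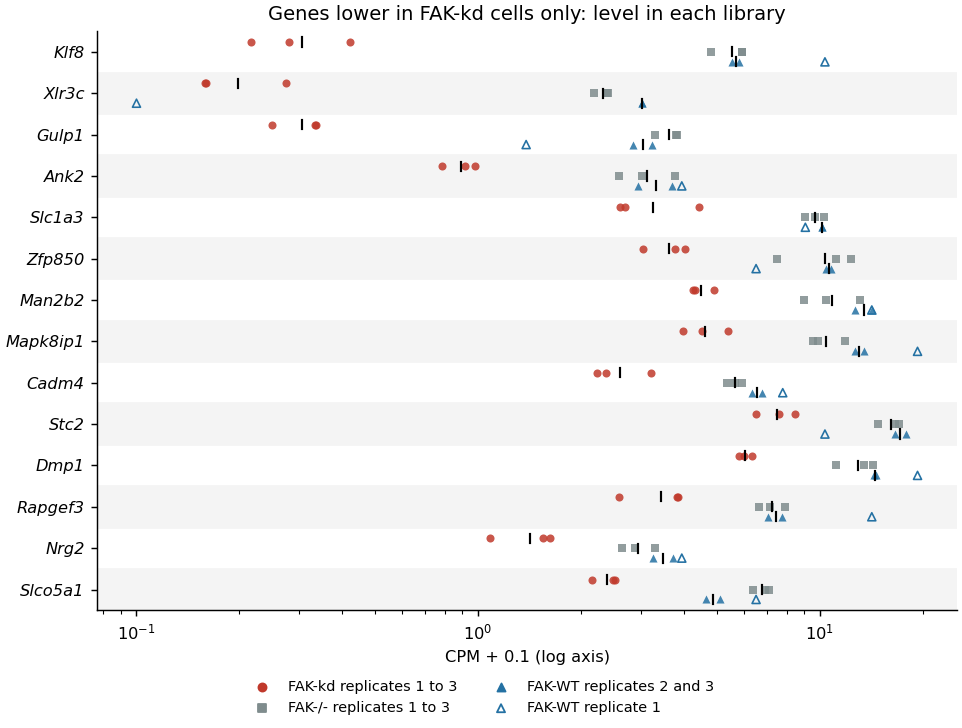
CPM + 0.1 on a log axis for the 14 genes lower in FAK-kd cells, with 1 symbol per library and a black bar at each group mean as in the plot of the higher genes. The FAK-kd libraries (red circles) lie left of all filled symbols, and for Xlr3c the open triangle of FAK-WT replicate 1, at 0 counts, lies left of them.

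FAK-WT replicate 1 was the only library that the choice of genes did not use, and it is 1 shallow library, so no test across samples was possible. The FAK-kd libraries did choose the genes, so counts of genes beyond them are partly set by that choice. The shares over all genes are therefore no like comparison, and the counts are a description. FAK-WT replicate 1 lay below every FAK-kd library for 17 of the 21 higher genes, beside 44.0% of all 10301 genes. It lay above every FAK-kd library for 13 of the 14 lower genes, beside 41.2%. Several of the 17 held fewer than 3 counts there, among them Dclk1 and Unc13d at 0 and Xlr3a and S100a16 at 1. The exceptions were Gm7332, Ankrd29, 2210408I21Rik and Pxylp1 among the higher genes, and Xlr3c with 0 counts among the lower genes. Among genes with at least 10 counts predicted for this library from FAK-WT replicates 2 and 3, it held for 4 of 4 higher genes (Tgm2, Arhgap28, Ly6e and Frmd6) and 4 of 4 lower genes (Man2b2, Mapk8ip1, Stc2 and Dmp1). The shares over the 8102 genes with such a prediction were 41.4% and 43.0%. Ly6e, the deepest, held 61 counts there, or 78.2 CPM with an exact 95% Poisson interval of 59.8 to 100 CPM, wholly under the lowest FAK-kd library at 164 CPM. Klf8 held 8 counts, or 10.3 CPM (interval 4.43 to 20.2 CPM), against at most 0.323 CPM in FAK-kd. The interval lay wholly beyond the nearest FAK-kd library for 8 higher and 5 lower genes. It held the mean of FAK-WT replicates 2 and 3 for 18 of 21 and 14 of 14 genes, and not for Ankrd29, 2210408I21Rik and Pxylp1. Ankrd29 held 7 counts, or 8.98 CPM (interval 3.61 to 18.5 CPM), more than any other library. These intervals cover counting error only.

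**Figure D5:**
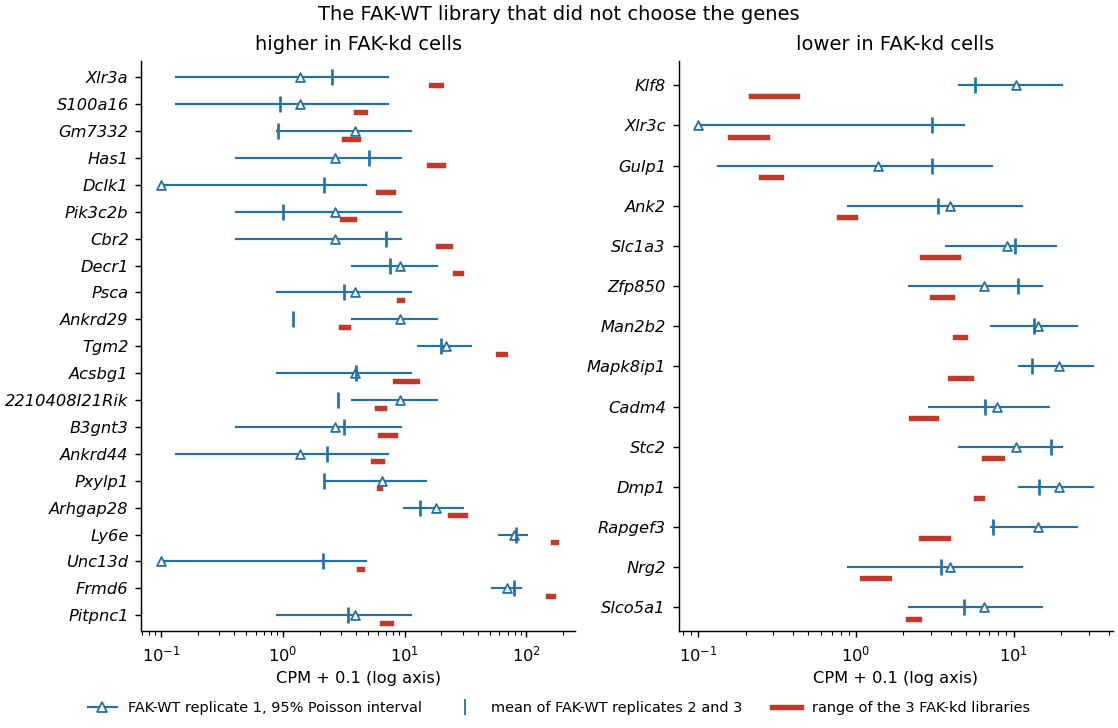
CPM + 0.1 on a log axis in FAK-WT replicate 1 (open triangle with its exact 95% Poisson interval), the mean of FAK-WT replicates 2 and 3 (vertical tick) and the range of the FAK-kd libraries (red bar) for the 21 higher genes (left panel) and the 14 lower genes (right panel). The interval holds the tick for 18 and 14 genes, and it lies wholly apart from the red bar for 8 and 5 genes.

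The 35 genes lie on 15 chromosomes, with 4 genes each on chromosomes 1, 11 and 15. The pairs closest to each other were Xlr3a with Xlr3c and Psca with Ly6e, and the next, Cadm4 with Zfp850 on chromosome 7, lay 3480 kb apart. All 14 lower genes and 20 of the 21 higher genes are annotated as protein coding. The longest transcripts had a median of 3541 bases and 51.0% GC in the higher genes and 3656 bases and 49.8% GC in the lower genes, beside 3472 bases and 49.4% GC over 10236 annotated genes that reached 3 CPM. The groups thus resembled all genes in length and base composition. Over 10% of the 31-base words were shared with another gene in 5 higher genes (Xlr3a, Gm7332, Cbr2, Tgm2 and Frmd6) and 1 lower gene (Xlr3c). Gm11771, which shares 15.0% of the words of Cbr2, held 0 counts in all libraries but FAK-WT replicate 1.

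Genes just inside and just outside the ratio limit of 2 had nearly equal values. The smaller of the ratios was 2.01 for Pitpnc1 and 2.01 for Frmd6 inside it, and 1.99 for Pgpep1 and 1.97 for Mid2 outside it. In the lower direction it was 2.04 for Slco5a1 and 2.07 for Nrg2 inside, and 1.97 for Cst6 and 1.94 for Efna3 outside. Leaving out some 1 of the 8 libraries dropped 7 higher genes (Arhgap28, Frmd6, Gm7332, Pitpnc1, Pxylp1, S100a16 and Unc13d) and 3 lower genes (Nrg2, Rapgef3 and Slco5a1) from the list, each in at least 1 case.

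Lists of genes of related pathways were read beside the chosen genes, and their counts stand beside shares of all identifiers called higher and lower of 2.89% and 2.37% against FAK-WT and of 0.914% and 1.09% against FAK-/-. In lists of this size these shares come to about 1 gene or less in each direction. Has1, Tgm2 and Stc2 are chosen genes, so their calls repeat the choice. The lists were also drawn up with earlier results of these data known, so the list counts are a description. In the hyaluronan list, 11 of 12 genes were analysed, and 1 rose over FAK-WT (Has1) and 2 over FAK-/- (Has1 and Has2) with none falling, although Has2 was at most at 0.158 CPM in any group mean and had 0 counts in FAK-/- cells. The medians of the list's log2 fold changes were 0.12 and 0.01, where the median over all genes was 0 in both comparisons. Of 8 analysed metalloproteinase inhibitors and transglutaminases, 2 rose in both comparisons (Tgm2 and Timp3) and none fell, with medians of -0.20 and -0.18. Timp3 was at 7.97 ± 0.694 CPM in FAK-kd, 1.04 ± 0.142 CPM in FAK-/- and 0.103 ± 0.0910 CPM in FAK-WT cells (SD, n = 3 each), and was not chosen because FAK-WT and FAK-/- differed. Of 26 ATF4 and amino acid response genes, 2 fell against FAK-WT (Stc2 and Bcat1) and 1 against FAK-/- (Stc2) with none rising, at medians of -0.28 and -0.17. Stc2 was the only gene of this list to fall in both.

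The other lists held no chosen gene. Retinoic acid handling had 2 higher and 2 lower than FAK-WT and 1 higher than FAK-/- of 22 genes. Its member Crabp2, a retinoic acid carrier, was 3.08 higher on the log2 scale than in FAK-WT (SE 0.16, edgeR adjusted p = 2.4e-09) and 2.25 higher than in FAK-/- cells (SE 0.13, edgeR adjusted p = 4.2e-08). The actin and planar polarity list had 2 higher and 1 lower than FAK-WT, and 1 higher and 2 lower than FAK-/-, of 29 genes. There Gas7, an actin-binding protein, was 5.34 higher than in FAK-WT (SE 0.26, edgeR adjusted p = 1.9e-09) and 3.02 higher than in FAK-/- cells (SE 0.19, edgeR adjusted p = 9.7e-08). Crabp2 and Gas7 differed between FAK-WT and FAK-/- by more than the limits allow. The counts of higher and lower genes against FAK-WT were 4 and 2 for basement membrane (29 genes), 3 and 2 for the NF-kB pathway (27), 0 and 2 for hypoxia (22), 3 and 0 for secreted ligands (20), 2 and 0 for calcium channels (12) and 2 and 0 for the protocadherin beta cluster (21). Against FAK-/- they were 1 and 2, 2 and 0, 0 and 2, 1 and 2, 0 and 0, and 0 and 0 in the same order, beside the shares of all identifiers given above. Their medians lay between -0.31 (hypoxia) and 0.55 (protocadherin beta) over FAK-WT and between -0.11 (protocadherin beta) and 0.12 (NF-kB) over FAK-/-. Ptk2b, the paralogue of FAK, was called in neither comparison.

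Other list genes were called in the same direction in both comparisons. Nid2, a basement membrane linker, was at 4.27 ± 0.825 CPM in FAK-kd and 0.761 ± 0.162 CPM in FAK-/- cells, with 0 counts in FAK-WT libraries (SD, n = 3 each here and below). Birc3, an inhibitor of apoptosis, was at 4.57 ± 0.916, 1.58 ± 0.385 and 0.0833 ± 0.0727 CPM in FAK-kd, FAK-/- and FAK-WT cells, and Traf1, an adaptor of tumour necrosis factor receptors, at 2.88 ± 0.377, 1.23 ± 0.346 and 1.55 ± 0.878 CPM. Fstl3, a secreted activin antagonist, was at 5.09 ± 0.538, 2.28 ± 0.442 and 0.699 ± 0.615 CPM in the same order. These 4 genes rose in FAK-kd cells, and 3 fell. Fras1, a basement membrane protein, was at 1.39 ± 0.0391, 3.10 ± 0.0626 and 6.11 ± 2.04 CPM, the carbonic anhydrase gene Car12 at 1.55 ± 0.178, 7.65 ± 0.344 and 19.95 ± 2.71 CPM, and Shroom2, an actin-binding protein, at 0.0586 ± 0.0287, 0.412 ± 0.123 and 6.51 ± 1.03 CPM. Traf1 was under the minimum of 3 CPM, and the other 6 lay apart between FAK-WT and FAK-/- cells.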

How the data were processed

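RNA of 3 replicates of each SCC line was sequenced, and libraries were grouped by the labels. RNA was extracted with an RNeasy kit, prepared with an unstranded TruSeq kit and paired-end sequenced on an Illumina platform. Per the labels, kallisto 0.43.1 and the mm10 build were used. The authors pseudoaligned the reads to a transcriptome whose release is not given in the sources used here, and the deposited values are kallisto's estimated counts, summed to genes with tximport, rounded and not scaled to depth. The authors removed genes with zero counts. Reads shared by near-identical genes are divided by kallisto's model.

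The chosen genes, the gene lists and the tests were chosen with earlier results of these data known. Besides the rule that chose the genes, edgeR 4.0.16 (quasi-likelihood test, TMM, R 4.3.3) was fitted to all 19044 identifiers in 9 libraries, with no factor other than the line, and p-values were adjusted with the Benjamini–Hochberg method over all of them. FAK-WT replicate 1, at 779755 counts, stayed in that fit. Library totals are given in the report, and Poisson intervals cover counting error only. Symbols came from a name table (18856 identifiers), and positions, transcript lengths and 31-base words from GENCODE M21. All 35 genes are named, since each is accounted for. Of other genes, Ptk2, list genes called in the same direction in both comparisons, genes at the ratio limit, relatives and neighbours are named, the relatives and neighbours, with Bcat1 and Has2, after their values were seen. The rule and the fit were tested on simulated data. Alternatives included DESeq2 1.42.0, other scalings, minimum counts, other limits, a replicate block, fits limited to both groups of a comparison and leaving out each library. The replicate number was no block in the reported fit.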

Additional observations from a re-analysis of the deposited data

How the results depend on the processing

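The number of chosen genes depended on the limits. With ratios of at least 1.5, 66 genes were higher and 51 lower in FAK-kd cells, and with ratios of at least 3, 7 and 4. A minimum level of 10 CPM gave 9 and 6, and one of 1 CPM gave 30 and 26. Leaving out each of the 8 libraries used gave 16 to 25 higher and 12 to 18 lower genes. Without FAK-WT replicate 3, 16 higher genes were left, and Frmd6, Gm7332, Pitpnc1, Pxylp1 and Unc13d were lost. With FAK-WT replicate 1 kept, 14 of the 21 higher and 12 of the 14 lower genes stayed, and the log2 ratio of Ankrd29 over FAK-WT turned to -0.24. With 1 CPM added in place of 0.1 CPM, 13 and 9 of the chosen genes stayed. Alternatives added after seeing the data were a minimum level taken before 0.1 CPM was added, which left 13 lower genes without Xlr3c, and the summed Xlr3 counts. Ankrd29 changed direction only with FAK-WT replicate 1 kept, and no other chosen gene did so there. None changed direction with TMM scaling or with any of the libraries used left out. FAK-WT replicate 1 lay beyond every FAK-kd library for 4 higher and 4 lower genes with at least 10 counts predicted, and its interval did for 8 and 5.

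Where each library had to hold 10 counts of a gene, 8083 genes could be tested, given the shallow FAK-WT replicate 1. This gave 69 higher and 62 lower calls against FAK-WT in place of 550 and 451, and 25 and 25 against FAK-/- in place of 174 and 208. DESeq2 gave fewer calls in both comparisons, 439 higher and 315 lower against FAK-WT and 135 and 127 against FAK-/-. It gave adjusted p-values for 12741 and 12372 genes, where edgeR tested 19044. The cause of the smaller numbers was not tested. With each library left out, the calls against FAK-WT were 441 to 609 higher and 334 to 541 lower, and those against FAK-/- 128 to 194 higher and 134 to 214 lower, the lowest without FAK-kd replicate 3. Libraries with the same replicate number in different lines deviated from their group means with correlations across genes between -0.085 and 0.082 (9 pairs). With so few libraries, 1 of them shallow, these values cannot show whether a replicate number stands for a shared batch. With the replicate block, 519 and 371 genes were called against FAK-WT and 170 and 189 against FAK-/-. Its depth limits the values of FAK-WT replicate 1 at a few CPM, where 1 count is worth 1.28 CPM, and the fits that include it.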
